A study of Homo sapiens with 6 samples.

Results

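The transcription factors that drive epithelial-to-mesenchymal transition (EMT) were examined in MDA-MB-231, an established human line from a triple-negative breast cancer with a mesenchymal look. Of 9 factors listed by gene symbol, a list made with earlier results of these data known, 6 were measured among the 16258 genes: SNAI1, SNAI2, ZEB1, ZEB2, TCF3 and TCF4. TWIST1, TWIST2 and PRRX1 were not analysed here. Cells of both groups were grown in DMEM with serum and antibiotics and carried no engineered allele or added agent named in the labels. Cells were loaded into a microfluidic device, the highly motile ones were collected as the migratory group, and the population without sorting was the comparison. Each group had 3 samples of 1000 pooled cells, so a value is an average over many cells of a single line.

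EMT is the programme by which epithelial cells give up their junctions and become motile. The SNAI proteins are zinc-finger repressors, ZEB1 and ZEB2 pair zinc fingers with a homeodomain, and TCF3 and TCF4 are basic helix-loop-helix (bHLH) E proteins that act as dimers. All of them bind E-boxes, short DNA words that include CACCTG and its reverse complement CAGGTG, and CDH1, the gene of the junction protein E-cadherin, is their best known target for repression. ID proteins lack a DNA-binding region and hold E proteins in inactive dimers. The TCF4 measured here is the bHLH factor also called E2-2, not TCF7L2, a Wnt pathway factor that shares the name.

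Small RNAs of the miR-200 family are known repressors of ZEB1 and ZEB2, and miR-34a of SNAI1, so their sequences are shown beside the sites in the transcripts described here. The libraries did not measure these small RNAs. Capitals mark the seed, bases 2 to 8 of each mature sequence from RefSeq (build GRCh38.p14). The first 3 share a seed, and the next 2 share another that differs from it by a single letter.
hsa-miR-200b-3p: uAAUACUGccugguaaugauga
hsa-miR-200c-3p: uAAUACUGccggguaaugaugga
hsa-miR-429: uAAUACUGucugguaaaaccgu
hsa-miR-200a-3p: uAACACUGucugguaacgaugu
hsa-miR-141-3p: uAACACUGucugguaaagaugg
hsa-miR-34a-5p: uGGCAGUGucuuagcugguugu

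The longest annotated 3' untranslated region of ZEB1, in GENCODE, held 6 perfect matches to the first seed and 3 to the second, and that of ZEB2 held 5 and 4. SNAI1 had none of either and 1 match to the miR-34a seed, TCF3 had no match to any of the seeds, SNAI2 had 1 match to the first, and TCF4 had 1 and 2. ZEB1 also held 1 match to the miR-34a seed. Of the genes in the table with such a region, 19.2% held at least 1 match to the first seed (CAGTATT), 21.5% to the second (CAGTGTT) and 17.2% to that of miR-34a (CACTGCC), on the transcript strand. A match is a string of letters and does not show that the small RNA acts there. The miR-34a match in SNAI1 and, of the matches to the first seed (CAGTATT), the first in ZEB1 and the first 2 in ZEB2 are given with the seed match in capitals.
SNAI1 (GRCh38, chr20:49988127-49988149, plus strand): accccacatccttctCACTGCCa
ZEB1 (GRCh38, chr10:31527618-31527640, plus strand): attgttttatcttatCAGTATTa
ZEB2 (GRCh38, chr2:144389052-144389074, minus strand): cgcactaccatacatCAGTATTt
ZEB2 (GRCh38, chr2:144388989-144389011, minus strand): cgcactacaatgcatCAGTATTa

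Values are read counts that the authors divided by a size factor per library, called normalised read counts, and the reads behind them came to 27032454 to 74227978 per library. They are not scaled for gene length, so levels of different genes are compared per kilobase of annotated exon. Differences between groups are log2 fold changes from limma, fitted on log2 of the value + 1 over 15786 genes, and adjusted p-values are Benjamini-Hochberg over all of them with a threshold of 0.05. Separate cultures are not named in the labels, so each p-value weighs a difference against a sample spread that may be technical. Unsorted replicate 2 was the deepest library, and its part in the limma fits and in the ratios of paralogs was examined by leaving it out. Levels per kilobase, shares, the search for like genes and marker sums were not recomputed without it.

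Of the EMT transcription factors SNAI1 differed most between the groups, being lower in migratory cells, and SNAI2 and ZEB1 were higher in each migratory library than in any unsorted one. No member passed the test over all genes in limma (0 of 6, where 37 of 15786 genes or 0.234% passed, 0.0443% higher and 0.19% lower) or in the quasi-likelihood test of edgeR (0 of 6, against 0.133% of genes), and 1, SNAI1, passed in DESeq2 (against 5.91% of genes in both directions and 3.61% lower). At an unadjusted limma p under 0.05 there were 2 members, SNAI1 lower and ZEB1 higher, where 17.7% of all tested genes were (7.7% higher, 10.0% lower). The groups did not overlap for 3 of 6 members, where they did not for 23.8% of all tested genes (2 higher against 11.3%, 1 lower against 12.5%). The median log2 fold change of the 6 was 0.18, and that of all tested genes was -0.03.

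**Figure D1:**
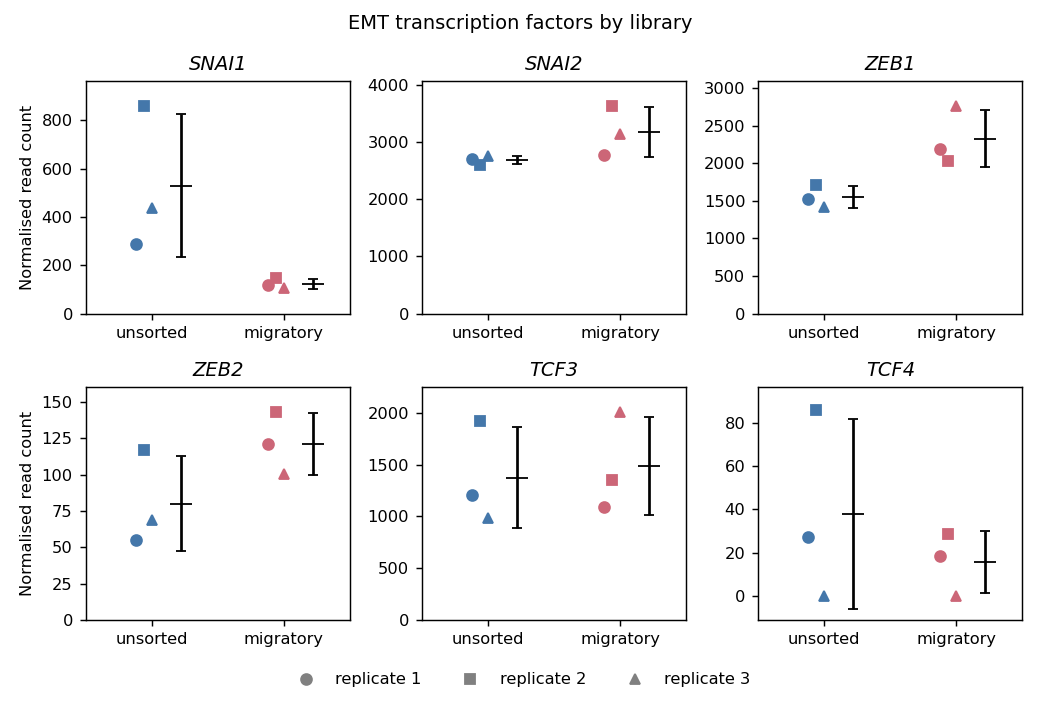
Normalised read counts (vertical axes, linear, each panel on its own scale) of the 6 measured EMT transcription factors in the unsorted and migratory libraries. Symbols are single libraries by replicate number, and bars to the right give the mean and SD of 3 libraries. SNAI1 lies between 107 and 146 in migratory libraries, below the 290.0 to 860.2 of unsorted ones, while ZEB2, TCF3 and TCF4 overlap between groups.

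SNAI1 encodes Snail, the factor that starts the repression of E-cadherin in many forms of EMT (chromosome 20, 49982999 to 49988886, plus strand, GRCh38). Its value was 290.0, 860.2 and 439.5 normalised read counts in the unsorted libraries and 118, 146 and 107 in the migratory ones. Every migratory library was below every unsorted one, and the range of the unsorted libraries was wider than the difference between the group means. Means were 529.9 ± 296 and 124 ± 19.97 (SD, n = 3 per group), 4.28-fold higher in the unsorted cells. The log2 fold change was -1.95 (SE 0.41, 95% interval -2.86 to -1.05), with a limma adjusted p of 0.076, above the threshold. By unadjusted p SNAI1 stood at rank 154 of 15786 genes. The reads behind these values were 254, 1761 and 539 in unsorted and 96, 102 and 94 in migratory libraries, so each migratory value rests on few reads. DESeq2 on whole reads gave an adjusted p of 2.2e-04 and edgeR 0.088. Without unsorted replicate 2, the library with the most SNAI1, the log2 fold change was -1.53 with a limma adjusted p of 0.11. In bulk samples fewer cells that express a gene and less RNA per cell cannot be told apart.

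SNAI2 encodes Slug, the close relative of Snail (chromosome 8, 48917604 to 48921740, minus strand). It was at 2709.6, 2598 and 2747 in the unsorted and at 2768, 3629 and 3133 in the migratory libraries. The groups did not overlap, but migratory replicate 1 lay just above the highest unsorted library, and the unsorted libraries differed from each other by little. Means were 2685 ± 77.9 and 3177 ± 432 (n = 3 per group), a log2 fold change of 0.23 (95% interval -0.19 to 0.66) with a limma adjusted p of 0.54. The within-group SD of SNAI2 on the log2 scale was 0.14, at the 5.06th percentile of all tested genes, and that of SNAI1 was 0.58, at the 68.8th. The median over all tested genes was 0.40.

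The balance of the SNAI pair was compared within each library, as the log2 of SNAI2 over SNAI1. It was 3.22, 1.59 and 2.64 in unsorted libraries and 4.54, 4.63 and 4.86 in migratory ones. All migratory ratios lay above all unsorted ratios, and the mean difference was 2.19 with an exact permutation p of 0.10 (two-sided), the smallest that 3 against 3 allows, so this test cannot pass 0.05. That order was already fixed, since SNAI1 was lower and SNAI2 higher in each migratory library than in any unsorted one. The ratio restates those results and adds no support to them, and the log2 fold changes behind it were -1.95 for SNAI1 and 0.23 for SNAI2. The difference stayed between 1.74 and 2.56 with any single library left out.

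ZEB1 (chromosome 10, 31318495 to 31529814, plus strand) represses epithelial genes together with the corepressor CtBP. Its value was 1525.5, 1705 and 1424 in unsorted and 2193, 2028 and 2760.3 in migratory libraries. No values overlapped, and the gap between the highest unsorted and lowest migratory library was wider than the range of the unsorted group. Means were 1551 ± 142 and 2327 ± 384 (n = 3 per group), with a log2 fold change of 0.58 (SE 0.21, 95% interval 0.10 to 1.05) and a limma adjusted p of 0.21. Part of its exon sequence, 4.23%, overlaps the antisense gene ZEB1-AS1, and the chemistry does not mark the strand. ZEB1-AS1, named after its values were seen, was at 189.5, 84.0 and 278.9 in unsorted and 254, 127 and 352 in migratory libraries.

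ZEB2 (chromosome 2, 144364364 to 144524583, minus strand), the relative of ZEB1 also called SIP1, was at 54.8, 117 and 68.5 in unsorted libraries. It was at 121, 143 and 100.3 in the migratory ones. Unsorted replicate 2 lay above migratory replicate 3, so the groups overlapped. The log2 fold change was 0.65 (95% interval -0.27 to 1.58) with a limma adjusted p of 0.43, and without unsorted replicate 2 it was 0.96 with an adjusted p of 0.27. The antisense gene ZEB2-AS1 overlaps 5.18% of the exon sequence of ZEB2. The log2 of ZEB2 over ZEB1 was -4.33 ± 0.46 in unsorted and -4.25 ± 0.48 in migratory libraries (SD, n = 3 per group), with an exact permutation p of 0.70 for a difference of 0.08. The p does not show that the pair changed alike, since its 3-against-3 design resolves little.

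TCF3 (chromosome 19, 1609290 to 1652605, minus strand), which encodes the E2A proteins, was at 1211, 1926 and 988 in unsorted libraries and at 1092, 1357 and 2010.1 in migratory ones. Each group held a library well above its others, replicate 2 among the unsorted and replicate 3 among the migratory, and the groups overlapped throughout. The log2 fold change was 0.12 (95% interval -0.58 to 0.82), with a limma adjusted p of 0.87. TCF12, another E protein and a bHLH partner, was at 1084, 1439 and 1004 in unsorted and at 1010.2, 1305 and 1853 in migratory libraries, with the same libraries highest and a limma adjusted p of 0.71. SNAI1, ZEB2 and TCF3 have pseudogenes by name in the annotation (SNAI1P1, ZEB2P1 and TCF3P1) that can share reads with them. The sources used here do not state how shared reads were treated.

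TCF4 (chromosome 18, 55222331 to 55664787, minus strand) was close to the limit of detection. It was at 27.4, 86.0 and 0 in unsorted and at 18.5, 28.6 and 0 in migratory libraries, from 24, 176, 0, 15, 20 and 0 reads in that order. The library numbered 3 in each group had no read, which allows up to 2.45 normalised read counts in the unsorted and 3.42 in the migratory one (3 reads, counting error only). The log2 fold change of -0.70 had an interval from -4.67 to 3.27 and a limma adjusted p of 0.87. Its sign changed when single libraries were left out, so no direction can be read. The libraries with no read were not the shallowest. The log2 of TCF4 over TCF3 differed by -0.82 between groups, with an exact permutation p of 0.50.

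**Figure D2:**
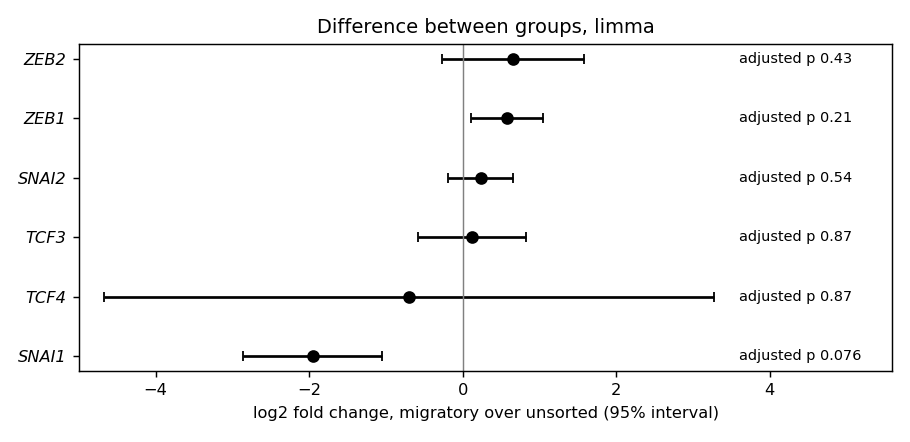
Log2 fold change of each measured EMT transcription factor, migratory over unsorted, with its 95% interval from limma (horizontal axis) and the adjusted p over all tested genes. The interval of SNAI1 runs from -2.86 to -1.05 and that of ZEB1 from 0.10 to 1.05, and those of the other 4 genes span 0.

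Per kilobase of exon SNAI2 was the most abundant member, at 864 normalised read counts per kilobase over the 6 libraries (range 766 to 1070). It was above every other member in every library. TCF3 at 235 (163 to 331), ZEB1 at 224 (165 to 319) and SNAI1 at 194 (63.6 to 510.2) followed, and their ranges overlapped. TCF3 exceeded ZEB1 in 3 of 6 libraries, and ZEB1 exceeded SNAI1 in 4 of 6, so over all libraries these neighbours did not differ beyond their spread. The order was not the same in both groups. SNAI1 had a mean of 314 per kilobase in unsorted cells, beside 226 for TCF3 and 179 for ZEB1, with overlapping ranges. In migratory cells it had a mean of 73.5 (63.6 to 86.6), below every migratory value of ZEB1 (234 to 319) and TCF3 (179.5 to 331). ZEB2 at 4.02 and TCF4 at 0.961 were far lower, and TCF4 was below ZEB2 in 6 of 6 libraries. By this measure SNAI2 stood at the 83.3rd percentile of genes matched to the annotation, ZEB1 at the 60.5th, ZEB2 at the 5.39th and TCF4 at the 0.272nd. The annotated exons of ZEB2 and TCF4 add up to 25.1 and 27.8 kilobases over many transcripts, and dividing by the longest protein-coding transcript gave 10.5 and 3.21 in place of 4.02 and 0.961, with the order of the 6 genes as before.

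As a share of the 6 genes' summed level per kilobase, SNAI1 made up 12.7%, 28.4% and 18.6% in unsorted libraries and 5.30%, 5.34% and 3.87% in migratory ones. ZEB1 made up 13.1%, 10.96% and 11.8% and then 19.1%, 14.5% and 19.4%. SNAI1 was above ZEB1 in 2 of 3 unsorted libraries and just below it in the other, and in the migratory libraries it was below ZEB1 in each. SNAI2 held 53.2% ± 9.21 of the pool in unsorted and 61.3% ± 4.87 in migratory cells (SD, n = 3 per group). The sum itself was 1516 ± 245 and 1529 ± 177 normalised read counts per kilobase, a difference far inside the spread of either group. Shares of a fixed total are tied to each other, so a lower share of one gene raises those of the rest.

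**Figure D3:**
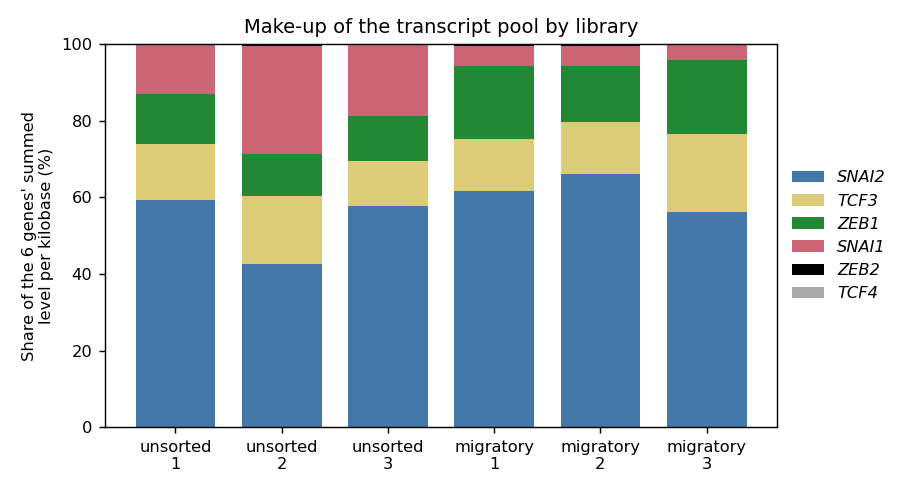
Share (%) of each of the 6 genes in their summed level per kilobase of exon, 1 bar per library. The SNAI1 segment covers 12.7% to 28.4% in unsorted and 3.87% to 5.34% in migratory libraries, and SNAI2 is the largest segment in all 6.

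The genes whose values ran most like each member over the 6 libraries were found by the root mean square difference of centred log2 values among 11199 other genes with a mean of at least 100. For SNAI1 these were PPP1R3C, at a difference of 0.22, and the interferon-induced gene IFIT2, at 0.22. For SNAI2 they were PKN2 (0.04) and GJB2 (0.05), for ZEB1 NUP88 (0.07) and AP3M1 (0.07), for ZEB2 TBC1D24 (0.08) and TBC1D22B (0.11), and for TCF3 AP3B1 (0.07) and GAREM (0.09). PPP1R3C was at 694, 1415 and 877 in unsorted and at 284, 262 and 259 in migratory libraries, with unsorted replicate 2 highest as for SNAI1. With so many genes compared over 6 libraries, close matches are bound to occur, and TCF4 was too low for this search.

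Of the ID genes, which hold TCF3 and TCF4 inactive, 2 of 3 measured members fell and the third was also lower in value, where 0.19% of all tested genes fell. ID1 was at 7165, 6577 and 7119 in unsorted and 1328, 1344 and 2566 in migratory libraries (log2 fold change -2.06, SE 0.26, limma adjusted p of 0.022). ID2 was at 789, 1235 and 821 and then at 115, 223 and 109 (log2 fold change -2.71, SE 0.35, limma adjusted p of 0.022). Both were thus well separated while TCF3 and TCF12 overlapped between groups. ID4, at 356 ± 280 and 109 ± 85.5 (n = 3 per group), did not pass (limma adjusted p = 0.23). ID3 was not analysed here. Without any 1 of the 3 unsorted libraries none of these genes passed, and without migratory replicate 2 or 3 a single one did. The median log2 fold change of the 3 genes stayed at -2.40 to -1.90 with any 1 library left out, and the calls over all genes were 1 to 2 without an unsorted library and 14 to 15 without migratory replicate 2 or 3.

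Epithelial genes that these factors are known to repress were lower in value for 23 of 26 tested members, with a median log2 fold change of -0.50, beside -0.03 for all tested genes. None passed the limma test over all genes, 10 had an unadjusted p under 0.05 (9 lower, 1 higher, where 10.0% and 7.7% of all tested genes did so), and DESeq2 called 1 (5.91% of all genes). The groups did not overlap for 9 lower members, where they did not for 12.5% of all tested genes in that direction. MUC1, a mucin of the apical surface, was at 367, 252 and 234 in unsorted and 109.8, 67.3 and 63.8 in migratory libraries (limma adjusted p of 0.075). JUP, the junction protein plakoglobin, was at 4133, 5261 and 4779 and then at 2130.1, 3581 and 2963, and CLDN7, a tight junction claudin, at 1497, 1184 and 1437 and then at 919, 724 and 1089. KRT19, a keratin of simple epithelia, was at 47127 ± 9783 and 30989 ± 5706 (n = 3 per group), and its groups overlapped. DSG2, a desmosomal cadherin, went the other way, at 1676, 1969.9 and 1367 and then at 2159, 3124 and 2798.

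CDH1 itself was at 0, 28.3 and 11.4 in unsorted and at 6.17, 0 and 20.52 in migratory libraries. These values stand for 0, 58, 14, 5, 0 and 18 reads, and libraries of both groups were at or near the floor of 3 reads, so no direction can be read.

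The promoters of 3 of these genes are shown because they hold E-box words of the kind the factors are known to bind, and MUC1 and CLDN7 had lower values while DSG2 had higher ones in migratory cells. These 3 were chosen after their values were seen. They are RefSeq sequences from 250 bases before to 50 bases after an annotated start, read 5' to 3' on the gene's strand, with CACCTG and CAGGTG in capitals (these words are each other's reverse complement, so both strands are covered, and none of the words shown overlap). The windows shown hold 2 such words each for MUC1 and DSG2 and 5 for CLDN7, and the window at another annotated start of CLDN7 holds 0. Of the 15 tested genes of the list with a promoter in the table, 12 held at least 1, or 80.0%, where 24.0% of all 10119 tested genes with one did. A gene counted if any of its windows held a word. By window, 58.3% of the 24 windows of the list did, where 18.6% of the 14787 windows of tested genes did. The list was drawn from genes known as targets of these factors, so these shares follow in part from how the list was made. A word is not a site of binding, and no binding was measured.
MUC1 (GRCh38.p14, chr1:155192860-155193159, minus strand): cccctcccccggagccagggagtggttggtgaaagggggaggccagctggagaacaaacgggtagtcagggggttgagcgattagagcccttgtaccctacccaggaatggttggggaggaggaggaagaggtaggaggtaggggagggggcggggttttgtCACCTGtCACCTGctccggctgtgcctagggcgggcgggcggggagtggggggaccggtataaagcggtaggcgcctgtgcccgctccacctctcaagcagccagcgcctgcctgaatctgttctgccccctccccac
CLDN7 (GRCh38.p14, chr17:7262429-7262728, minus strand): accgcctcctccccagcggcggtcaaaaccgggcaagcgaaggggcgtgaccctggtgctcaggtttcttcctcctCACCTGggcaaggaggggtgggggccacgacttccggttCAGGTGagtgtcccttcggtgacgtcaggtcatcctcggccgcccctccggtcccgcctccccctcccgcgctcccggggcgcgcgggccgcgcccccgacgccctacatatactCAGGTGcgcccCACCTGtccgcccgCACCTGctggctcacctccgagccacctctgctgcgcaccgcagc
DSG2 (GRCh38.p14, chr18:31497927-31498226, plus strand): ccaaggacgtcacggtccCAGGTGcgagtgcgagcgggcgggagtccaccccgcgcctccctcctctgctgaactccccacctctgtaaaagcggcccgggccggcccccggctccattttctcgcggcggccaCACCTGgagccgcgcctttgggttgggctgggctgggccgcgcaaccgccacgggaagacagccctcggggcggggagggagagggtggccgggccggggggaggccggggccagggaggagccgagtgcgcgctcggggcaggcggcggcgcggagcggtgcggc

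Mesenchymal genes that rise in EMT were mixed, with 9 of 26 tested members higher and 17 lower in value and a median log2 fold change of -0.54. In limma 1 rose and none fell, where 0.0443% and 0.19% of all tested genes did, and DESeq2 called 5 (5.91% of all genes). LOX (DESeq2 adjusted p of 0.0055) and COL1A2 (0.011) were among those 5, both lower, and NT5E (0.0197) and AXL (0.043) were higher. The groups did not overlap for 6 higher and 5 lower members, where 11.3% and 12.5% of all tested genes did so. Matrix genes were among the lower values. COL1A2, a chain of fibrillar collagen, was at 1945, 2780.3 and 1144 in unsorted and 302, 1080.5 and 540.4 in migratory libraries. The collagen crosslinking enzyme LOX was at 3301, 3259.9 and 3327 and then at 1208, 1800.4 and 2083 (limma adjusted p of 0.099). FN1, fibronectin, was at 4242 ± 1518 and 2199.5 ± 811, and CDH2, the N-cadherin gene that often replaces CDH1 in EMT, at 41.0 ± 18.3 and 26.7 ± 9.34 (n = 3 per group, limma adjusted p of 0.20 and 0.67). VIM, vimentin, was higher in each migratory library, at 17865, 17418 and 20315 against 15851, 13455 and 14089.8, and NT5E, a surface enzyme of mesenchymal cells, was at 6845 ± 2449 and 12973 ± 1630.1 (limma adjusted p of 0.26 and 0.10).

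Other transcription factors tied to EMT had no call among 18 tested genes in limma, with 8 higher and 10 lower and a median of -0.07. FOSL1, an AP-1 subunit, had the smallest p of them, at 4592, 6024 and 7287 in unsorted and 14833, 12050.2 and 20704 in migratory libraries (log2 fold change 1.40, SE 0.24, limma adjusted p of 0.054). HMGA2, a chromatin protein that can raise SNAI1 and TWIST1, was at 660.0, 839 and 829 and then at 1282, 1334 and 1587. The forkhead factor FOXQ1 was at 1154, 1374 and 1393 and then at 385, 615 and 852. HMGA2 and FOXQ1 both missed the threshold, with a limma adjusted p of 0.12 each, although neither overlapped between groups. At an unadjusted limma p under 0.05 the list held 5 genes (17.7% of all tested genes), and 3 passed in DESeq2 (5.91%).

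Factors that hold the epithelial state were tested for 10 genes, of which none was called in limma and 2 had an unadjusted p under 0.05, near the 17.7% of all tested genes. ELF3, an epithelial ETS factor, was at 180.4, 262 and 429.8 in unsorted and 32.1, 17.2 and 57.0 in migratory libraries, with a log2 fold change of -3.07 (SE 0.52) and a limma adjusted p of 0.054. DESeq2 called 1 gene of this list, where it called 5.91% of all genes. GRHL1 was at 25.1, 0 and 9.79 and then at 43.2, 15.7 and 130.0, with overlap between the groups. The median of the list was -0.17.

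Corepressors and chromatin partners of the SNAI and ZEB proteins had a median of 0.11 over 23 tested genes, with none called in limma, edgeR or DESeq2 and 1 at an unadjusted limma p under 0.05 (17.7% of all tested genes). CTBP1, a corepressor that ZEB1 recruits, was at 5436, 4984 and 5372 in unsorted and 3264, 6201 and 4352 in migratory libraries, and CTBP2 at 2410.4, 2779 and 2855 and then at 2901, 2809 and 4123. Both overlapped between groups. BMI1, a Polycomb protein, was at 1669 ± 152 and 2489 ± 189.7 (n = 3 per group, limma adjusted p of 0.18). Genes for the stability and location of the proteins had a median of 0.21 over 27, with none called in limma, edgeR or DESeq2 and 2 at an unadjusted limma p under 0.05 (again beside 17.7%). PSMD14, a proteasome deubiquitinase, was at 13373 ± 1576 and 18543 ± 2537 (limma adjusted p of 0.20), and LOXL2, a lysyl oxidase that can stabilise Snail, at 18575 ± 1614 and 12461 ± 5259 (0.28). Values of RNA do not measure the proteins, which in the case of Snail turn over quickly.

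Upstream inducers had a median of -0.06 over 21 tested genes, 10 higher and 11 lower, with none called in limma, 6 at an unadjusted p under 0.05 and 2 called in DESeq2, where 17.7% and 5.91% of all genes were. The cytokine IL6, an inducer of Snail in breast cancer cells, was at 2314.5, 1076 and 2570.4 in unsorted and 908, 298 and 548 in migratory libraries (limma adjusted p of 0.10). HMGA1, a chromatin protein, was at 15113, 19844 and 22160 and then at 28445, 30940 and 30824 (0.11). The IL6 groups did not overlap, and unsorted replicate 2 was the lowest of its group. A link between IL6 and SNAI1 was not tested. SNAI3 and HAND1, relatives measured at low counts, were at most 21.5 and 79.1 in any library.

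**Figure D4:**
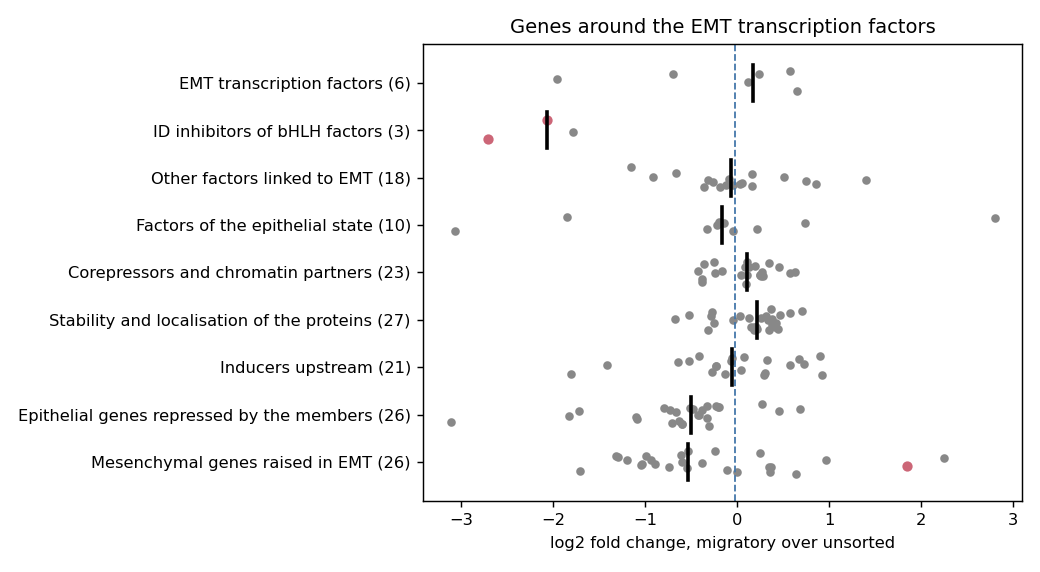
Log2 fold change, migratory over unsorted, of each tested gene in 9 lists around the EMT transcription factors (number of genes in brackets). Points are genes, red where the limma adjusted p is under 0.05, black bars are list medians and the dashed line is the median of all tested genes at -0.03. Medians of the epithelial and mesenchymal lists lie at -0.50 and -0.54, and 2 of 3 ID genes are red.

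Genes known as high in the line were all read in these libraries, but of those known as low not all were low. VIM, CD44, AXL, CAV1, EGFR and MSN were all measured, with a summed value of 110352 to 133512 in unsorted and 156912 to 185090 in migratory libraries. That sum was higher in every migratory library than in any unsorted one, and none of the 6 genes passed in limma. The groups did not overlap for 4 of the 6, where 11.3% of all tested genes were higher without overlap. Of 10 genes known as low in the line 5 were measured, and CDH1 was near 0, while EPCAM was at 1512 to 3089 and CLDN7 at 724 to 1497 over the 6 libraries. Per kilobase EPCAM stood at the 83.1st percentile of genes matched to the annotation, CLDN7 at the 73.2nd and GATA3 at the 52.1st. ERBB2, also measured, had a log2 fold change of 0.06 (limma adjusted p of 0.96). Fibroblasts express SNAI and ZEB genes, and blood and endothelial cells express ZEB2 and TCF4, so markers of these cells are given. Summed fibroblast markers, 5 of 9 measured, were at 2772 to 4183 in unsorted and 818 to 2111 in migratory libraries, lower in value for 5 of 5. Blood cell markers, 3 of 10 measured, summed to 776 to 974 and 360.2 to 641, with CD14 at 356 ± 66.1 and 65.6 ± 41.1 (n = 3 per group). Endothelial markers, 5 of 7 measured, summed to 1319 to 1916 and 699 to 987, and keratinocyte markers, 3 of 6 measured, to 4327 to 5774 and 3993 to 7033. The fibroblast, blood and endothelial sums were lower in every migratory library than in any unsorted one, and the keratinocyte sum overlapped. All measured fibroblast markers but LUM also stand in the mesenchymal list above, so they do not mark fibroblasts alone. PECAM1 made up most of the endothelial sum, at 1225 to 1850.3 in unsorted and 562 to 942 in migratory libraries, while KDR (log2 fold change 2.10, limma adjusted p of 0.42), TEK and TIE1 overlapped between groups. In the blood list CD14 was lower without overlap and CSF1R overlapped. The groups were apart for 2 of 5 fibroblast markers, both lower, where 12.5% of all tested genes were lower without overlap. Any part of such cells in the SNAI1 result was not tested. The defining markers DCN, PTPRC, CDH5 and VWF were not analysed here.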

How the data were processed

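RNA from 6 samples of 1000 MDA-MB-231 cells, 3 unsorted and 3 migratory, was amplified as full-length cDNA with a SMART-seq kit and tagmented with Nextera XT, per the labels' protocols. This chemistry has no molecular identifiers, so floors cover counting error only. The limma intervals rest on the spread between samples. The deposited values are a signal, read counts divided by 1 size factor per sample and not by gene length. HISAT2, HTSeq and DESeq2 with hg38 and GRCh38.p7 are named in the submitters' processing notes, whose versions and roles, and the annotation, no source used here states.

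Dividing by each library's smallest step gave back whole reads for 100% of values (tolerance 0.01 read), with totals of 27032454 to 74227978. No replicate pair matched within counting noise (chi-square over its degrees of freedom 45.1 to 153), and each library was kept as a sample. The main test was limma 3.58.1 (R 4.3.3) with a mean-variance trend on log2 of the value + 1 over genes with a mean of at least 10, a filter that removed 472. edgeR 4.0.16 and DESeq2 1.42.0 were run on the recovered reads as alternatives and called 21 and 933 genes. The fits were tested on simulated data. Ratios of paralogs were tested by exact permutation (scipy 1.17.1).

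The members and gene lists were chosen with earlier results of these data known. The rule for named genes took every member with a row, up to 4 genes per list by smallest p, those past the threshold and a few fixed ones, and the text gives those its results turn on. The mesenchymal gene that passed the threshold is counted but not reported here. Coordinates and exon lengths come from GENCODE 29 (GRCh38), matched by symbol for 85.8% of genes. Sequences come from RefSeq (GRCh38.p14), where ZEB1, ZEB2, TCF3 and TCF4 matched by symbol, and target sites from GENCODE transcripts.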

Additional observations from a re-analysis of the deposited data

How the results depend on the processing

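SNAI1 stayed lower under every one of the 16 alternatives, with log2 fold changes from -2.31 to -1.53 and a limma adjusted p of 0.11 to 0.27 when single libraries were left out. The count of members past the threshold was 0 in those fits and became 1, SNAI1, with DESeq2, with the replicate number as a block (adjusted p of 0.0498) and with array weights (0.040, a setting chosen after seeing the data). ZEB1 and ZEB2 stayed higher in all. With 1 library left out TCF3 ranged from -0.12 to 0.39 and TCF4 from -2.58 to 0.83. TCF3 turned to -0.09 without unsorted replicate 3 and -0.12 without migratory replicate 3. TCF4 turned to 0.64 when unsorted replicate 2 was dropped, to 0.83 when migratory replicate 3 was, and to 0.11 under array weights, and it is missing from the filter at a mean of 50. The ZEB2 against ZEB1 difference ranged from -0.14 to 0.34 and the TCF4 against TCF3 difference from -2.49 to 0.95 with 1 library left out. They turned to -0.14 without unsorted replicate 1, -0.14 without migratory replicate 2, and to 0.25 without unsorted replicate 2 and 0.95 without migratory replicate 3. The SNAI2 against SNAI1 difference ranged from 1.74 to 2.56. The count of all genes past the threshold, 37, was 68 with a pseudocount of 5, 78 with the filter at 50, 81 with upper-quartile scaling, 21 in edgeR, 933 in DESeq2, 114 with the block, 507 with array weights and 1 to 44 with 1 library left out. Deviations of same-numbered samples from their group means had correlations of 0.117, 0.108 and 0.0369 over genes. Those of differently numbered samples ran from -0.162 to 0.0723. The third same-numbered value, 0.0369, lies inside that range and is too low to treat the numbers as pairs, so the block fit is given here only. The cause of these shifts was not tested. TCF4 and CDH1 rest on few or no reads in some libraries, and the planned TWIST2 against TWIST1 comparison was not run.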
